A study of Homo sapiens with 6 samples.

Results

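The thioredoxin and peroxiredoxin system was followed as 10 genes: TXN, TXNRD1, TXNIP, SRXN1 and PRDX1 to PRDX6. They were found by gene symbol in a count table of 61806 genes, where each symbol matched 1 row, and all 10 were among the 15704 genes with enough counts to be tested. Peroxiredoxins reduce hydrogen peroxide with a reactive cysteine and are oxidised in doing so. Thioredoxin (TXN) returns them to the reduced form, and thioredoxin reductase (TXNRD1), a selenoprotein, recharges thioredoxin with electrons from NADPH. Sulfiredoxin (SRXN1) rescues peroxiredoxins whose cysteine has been oxidised too far, and TXNIP binds thioredoxin and inhibits it. TXN, TXNRD1, SRXN1 and PRDX1 are textbook targets of NRF2, the transcription factor of the oxidative stress response.

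The cells were HFFs, banked human foreskin fibroblasts with a wild type genotype label. UVB + sauchinone libraries (3) came from cells irradiated with 40 mJ per cm2 of UVB, the sunlight band that DNA absorbs, and cultured with 10 µM sauchinone, a plant lignan, for 48 h. UVB libraries (3) came from cells given the same irradiation without the compound. Both groups were irradiated. Cells without UVB were not analysed here, and every comparison is between irradiated cells with and without sauchinone. The labels give the same batch to all libraries and do not say whether replicates were separate cultures, so p-values measure the spread between these libraries, which may be technical. They also describe a variant in which the compound preceded irradiation, without saying which libraries had it.

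Total counts were 21645464 to 23076388 in UVB + sauchinone libraries and 20984851 to 23075536 in UVB libraries. Of the 15704 genes, 49.6% differed between the groups in edgeR's quasi-likelihood test (Benjamini-Hochberg adjusted p under 0.05), 24.7% higher and 24.9% lower with sauchinone, and the median log2 fold change was 0.0071. All 9 fibroblast markers looked up were expressed, and their summed level was 13529 to 13818 CPM in UVB + sauchinone libraries and 19170 to 20968 CPM in UVB libraries (CPM, counts scaled by TMM library size). Of 6 keratinocyte markers KRT5 and KRT1 had no count, and the sum of 475 to 537 CPM in UVB + sauchinone and 637 to 690 CPM in UVB came almost wholly from the desmosome gene DSP. The 4 melanocyte markers summed to 1.30 to 1.49 CPM and 1.63 to 2.41 CPM in the same groups, with DCT at 0. The 4 endothelial markers summed to 0.362 to 0.728 CPM and 0.397 to 0.674 CPM, with CDH5 and KDR at 0, and the 5 immune markers to 3.73 to 4.06 CPM and 3.13 to 4.03 CPM, with CD3E at 0. The part of the fibroblast and DSP differences in the results below was not tested. In bulk RNA, fewer cells of a kind and less RNA per cell cannot be told apart.

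The upstream sequences of TXNRD1 and TXNIP are shown because these genes, the recharger and the inhibitor of thioredoxin, moved in opposite directions. Promoter sequences from RefSeq (GRCh38.p14) matched 8 of the 10 genes, with no entry for PRDX1 and PRDX6. Each window reached from 250 bases before a start to 50 after it, and the 250 bases before the start are printed. Both strands were searched for the core of the antioxidant response element (TGACNNNGC, the site of NRF2), the AP-1 site (TGANTCA) and the E-box (CACGTG). These occurred in 13.3%, 7.71% and 7.26% of all 35116 windows. A further motif, an E-box-like element repeated in the same direction after 5 bases (CACGAG, 5 bases of any kind, CACGAG), was searched after the TXNIP sequence had been read and occurred in 2 of the 35116 windows. Capitals mark the antioxidant response element core in TXNRD1, where it lay wholly within the printed bases, and the repeated element in TXNIP. A further TXNIP window, at a start inside the gene, held none of these motifs and is not printed.
TXNRD1, start annotated upstream, chr12:104215529-104215778, plus strand: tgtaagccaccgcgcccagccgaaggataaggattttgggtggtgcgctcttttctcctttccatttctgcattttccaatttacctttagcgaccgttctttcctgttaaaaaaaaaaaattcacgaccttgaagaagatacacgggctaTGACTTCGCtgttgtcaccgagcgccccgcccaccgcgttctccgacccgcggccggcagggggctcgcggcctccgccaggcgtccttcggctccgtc
TXNRD1, start annotated downstream, chr12:104286782-104287031, plus strand: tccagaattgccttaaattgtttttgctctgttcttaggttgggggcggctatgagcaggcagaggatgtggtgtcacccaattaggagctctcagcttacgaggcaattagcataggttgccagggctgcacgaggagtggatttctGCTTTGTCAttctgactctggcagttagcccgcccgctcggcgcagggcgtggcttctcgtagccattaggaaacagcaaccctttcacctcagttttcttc
TXNIP, start at the gene's 5′ end, chr1:145996580-145996829, minus strand: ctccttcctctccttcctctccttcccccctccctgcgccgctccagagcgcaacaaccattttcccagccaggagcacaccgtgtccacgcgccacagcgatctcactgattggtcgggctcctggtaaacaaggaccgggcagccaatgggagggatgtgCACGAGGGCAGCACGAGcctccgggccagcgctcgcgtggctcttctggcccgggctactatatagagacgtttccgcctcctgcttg

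Both TXNRD1 windows held the antioxidant response element core. In the downstream one the match lay at −102 to −94 from the start, on the opposite strand (GCTTTGTCA as read on the plus strand). In the upstream one a match lay at −99 to −91, and another, on the opposite strand, ran across the start itself. None of the windows of TXN, SRXN1, TXNIP, PRDX2, PRDX3, PRDX4 and PRDX5 held these letters, and no window of the 8 matched genes held the AP-1 site. An E-box stood in the windows of PRDX3 and PRDX4. The repeated element in TXNIP lay at −88 to −72 from the start, and this arrangement is known as a carbohydrate response element, bound by the glucose-sensing factors MondoA and ChREBP. A match describes letters and does not show that a factor was bound. An absence covers these windows and these letters only, and sites farther from the starts were not searched.

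With sauchinone, 5 of the 10 genes rose (SRXN1, PRDX1, TXN, TXNRD1 and PRDX4) and 2 fell (TXNIP and PRDX6), beside 24.7% and 24.9% of all genes tested, while PRDX2, PRDX3 and PRDX5 did not pass. The 7 of 10 called in either direction compare with 49.6% of all genes. Libraries of the 2 groups did not overlap in 8 of the 10 genes, against 57.1% of all genes tested. A change of at least 1.5-fold that passed the test was seen in 3 of the 10 (SRXN1, PRDX1 and TXNIP), against 25.1% of all genes, so sizeable changes were about as frequent here as elsewhere. The median log2 fold change of the 10 genes was 0.21. The 10 genes and the lists below were chosen with earlier results of these data known, so such shares are no independent evidence. None of the 10 depended on one group to pass the filter on low counts, as the lowest count of any was 43.

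**Figure D1:**
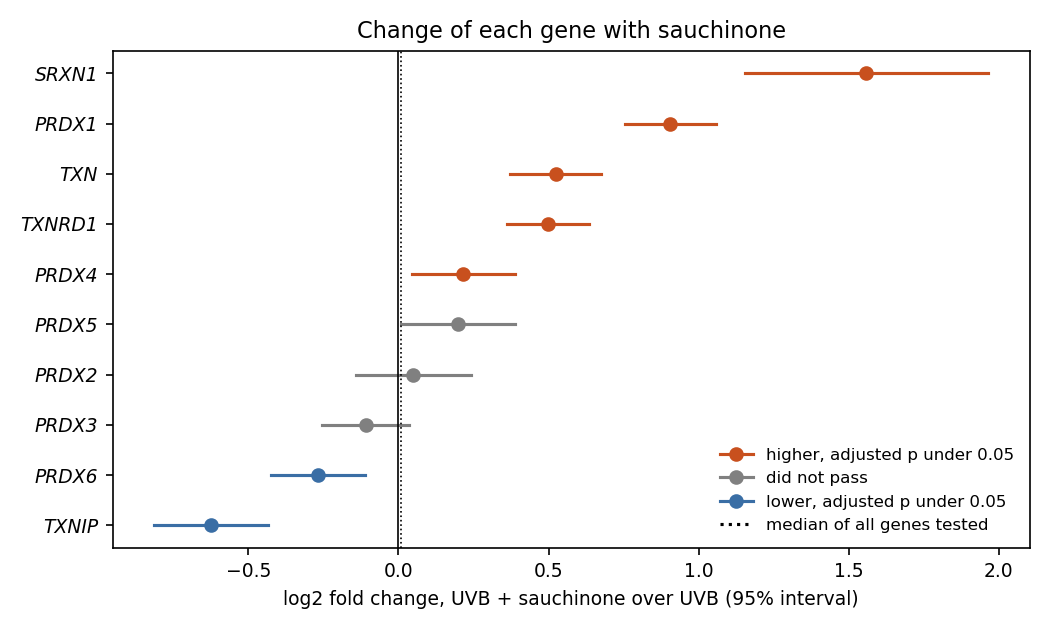
Log2 fold change of each gene (UVB + sauchinone over UVB) with its 95% interval from edgeR's fit on 3 libraries per group, coloured by call; the dotted line is the median of all 15704 genes tested (0.0071). SRXN1 lies farthest right at 1.56 and TXNIP farthest left at −0.62, and the intervals of PRDX2 and PRDX3 cross 0.

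Levels were compared between genes per length, in TPM (the count divided by exonic size and scaled to a common total). PRDX1 had the highest level of the 10, at 3283 ± 226 TPM in UVB + sauchinone and 1833 ± 99.8 TPM in UVB (mean ± SD, n = 3 in each group here and below). TXN came next, at 1227 ± 59.7 TPM and 893 ± 24.1 TPM in the same groups. In UVB + sauchinone the order went on with TXNRD1 at 802 ± 45.7 TPM, PRDX6 at 602 ± 24.1 TPM, PRDX5 at 471 ± 20.2 TPM, PRDX3 at 257 ± 10.8 TPM, PRDX4 at 249 ± 21.9 TPM, PRDX2 at 128 ± 3.31 TPM, TXNIP at 61.9 ± 4.88 TPM and SRXN1 at 12.0 ± 0.71 TPM. The UVB group had the same order except that PRDX6, at 758 ± 57.0 TPM, stood above TXNRD1, at 595 ± 17.3 TPM, with no overlap of libraries in either group. PRDX3 and PRDX4 overlapped in UVB + sauchinone (247 to 269 TPM and 224 to 265 TPM) and not in UVB (277 to 303 TPM and 218 to 230 TPM). No other neighbours in either order overlapped. The exonic size joins all annotated exons of a gene, so the TPM of TXNRD1, with 6710 exonic bases, is lowered where its main transcript is shorter.

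**Figure D2:**
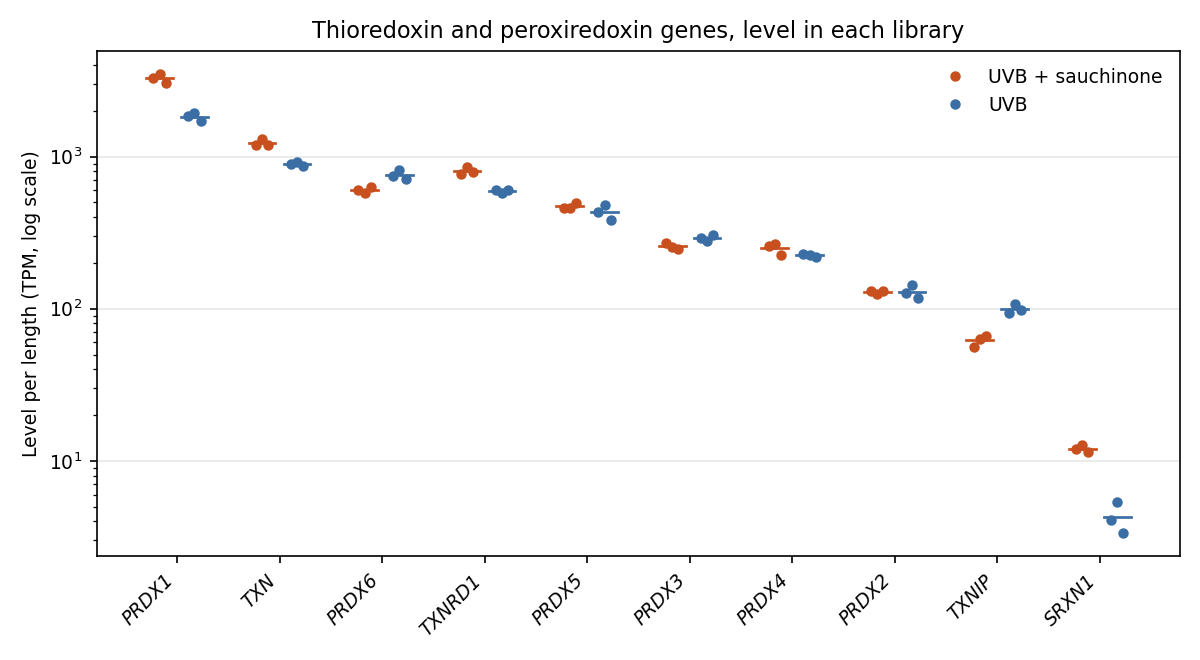
Level of each gene in TPM (log axis) in the 3 UVB + sauchinone and the 3 UVB libraries, ordered by the UVB mean; points are libraries and lines are group means. PRDX1 is highest at 3050 to 3503 TPM in UVB + sauchinone and 1724 to 1921 TPM in UVB, and SRXN1 lowest at 11.4 to 12.8 TPM and 3.34 to 5.36 TPM.

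Thioredoxin and its reductase rose by similar amounts. TXN, the small electron carrier (ENSG00000136810, chromosome 9 at 110243810 to 110256507, minus strand, GRCh38), was at 286, 319 and 290 CPM in UVB + sauchinone replicates 1, 2 and 3 and at 207, 218 and 197 CPM in UVB replicates 1, 2 and 3. All UVB + sauchinone libraries lay above all UVB libraries, and the log2 fold change was 0.52 ± 0.073 (SE; edgeR adjusted p = 3.1e-06), a 1.44-fold rise. TXNRD1 (ENSG00000198431, chromosome 12 at 104215779 to 104350307, plus strand) was at 1222, 1394 and 1270 CPM in UVB + sauchinone and at 932, 911 and 910 CPM in UVB. The groups again did not overlap, and the log2 fold change was 0.50 ± 0.066 (edgeR adjusted p = 1.6e-06), a 1.41-fold rise. TXNRD1 spans 134.5 kb and lies in the fifth of genes with the longest spans (genomic length), where 7.99% of genes were higher and 58.5% lower with sauchinone. Alternative fits took out of each library the smooth dependence of counts on span, on exonic size or on GC share, and are called span-adjusted, size-adjusted and GC-adjusted below. The span-adjusted log2 fold change was 0.85 for TXNRD1 and 0.35 for TXN, which spans 12.7 kb.

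The ratio of TXNRD1 to TXN within a library, which no scaling of libraries alters, was 0.644, 0.659 and 0.659 in UVB + sauchinone replicates 1, 2 and 3 and 0.679, 0.629 and 0.695 in UVB replicates 1, 2 and 3 (ratio of TPM). The groups overlapped, and the difference of the log2 ratios was −0.028 (exact permutation test, two-sided, p = 0.50, adjusted p = 0.50 over 3 ratios). With 3 libraries against 3 the smallest p this test can give is 0.10. Leaving out UVB replicate 3 turned the sign of the difference, to 0.0015.

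TXNIP, the thioredoxin inhibitor and an alpha-arrestin that also restrains glucose uptake, fell. The gene (ENSG00000265972, chromosome 1 at 145992435 to 145996579, minus strand) was at 48.4, 55.8 and 56.9 CPM in UVB + sauchinone replicates 1, 2 and 3 and at 77.5, 91.4 and 79.5 CPM in UVB replicates 1, 2 and 3. Every UVB + sauchinone library lay below every UVB library, and TXNIP was 1.54-fold lower, at −0.62 ± 0.091 in log2 units (edgeR adjusted p = 5.7e-06). TXNIP spans 4.14 kb, in the fifth of genes with the shortest spans, where 8.12% of genes were lower. The TXNIP to TXN ratio was 0.0475, 0.0491 and 0.0550 in UVB + sauchinone libraries and 0.105, 0.117 and 0.113 in UVB libraries (ratio of TPM). It was thus 2.22-fold lower with sauchinone without overlap of the groups, a log2 difference of −1.15 (exact permutation test, two-sided, p = 0.10, the smallest it can give, adjusted p = 0.15 over 3 ratios).

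SRXN1, the repair enzyme of over-oxidised peroxiredoxins, had the largest fold change of the 10 and the lowest level. The gene (ENSG00000271303, chromosome 20 at 646615 to 653200, minus strand) had 159, 182 and 161 counts in UVB + sauchinone replicates 1, 2 and 3 and 49, 69 and 43 counts in UVB replicates 1, 2 and 3. In CPM this was 7.19, 7.86 and 6.90 with sauchinone and 2.36, 3.20 and 1.90 without it, and the groups lay far apart. The log2 fold change was 1.56 ± 0.20 (edgeR adjusted p = 7.3e-07), a 2.95-fold rise with a 95% interval of 2.22-fold to 3.90-fold, and 1.35% of all genes tested had a higher log2 fold change. An unnamed gene on the same strand, ENSG00000270299, overlaps SRXN1 and had 11, 14 and 11 counts in UVB + sauchinone and 2, 1 and 6 counts in UVB, at most 14.0% of the SRXN1 count of the same library. The ratio of SRXN1 to the summed PRDX1 to PRDX4 was 0.00302, 0.00308 and 0.00311 in UVB + sauchinone libraries and 0.00163, 0.00209 and 0.00141 in UVB libraries (ratio of TPM). These 4 are the peroxiredoxins that sulfiredoxin acts on. The ratio was 1.82-fold higher with sauchinone, without overlap (exact permutation test, two-sided, p = 0.10, the smallest it can give, adjusted p = 0.15 over 3 ratios).

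The 6 peroxiredoxins moved unequally. PRDX1, the main cytosolic one (ENSG00000117450, chromosome 1 at 45510914 to 45542732, minus strand), was at 1319, 1434 and 1233 CPM in UVB + sauchinone replicates 1, 2 and 3 and at 713, 762 and 653 CPM in UVB replicates 1, 2 and 3. The groups were far apart, and the log2 fold change was 0.91 ± 0.073 (SE; edgeR adjusted p = 9.2e-10), a 1.87-fold rise with a 95% interval of 1.69-fold to 2.08-fold. PRDX2, the other mainly cytosolic form of the same type (chromosome 19 at 12796820 to 12801800, minus strand), was at 62.8, 61.4 and 63.5 CPM with sauchinone and at 58.8, 68.9 and 53.7 CPM without it. The treated libraries lay inside the range of the untreated ones, and the log2 fold change of 0.050 had a 95% interval of −0.14 to 0.24 (edgeR adjusted p = 0.69). Leaving out UVB replicate 3 turned its sign (−0.033), as did the span-adjusted, size-adjusted and GC-adjusted fits (−0.17, −0.10 and −0.11).

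PRDX3, the mitochondrial peroxiredoxin (chromosome 10 at 119167720 to 119178812, minus strand), was at 216, 210 and 201 CPM in UVB + sauchinone replicates 1, 2 and 3 and at 225, 221 and 230 CPM in UVB replicates 1, 2 and 3. The groups did not overlap, yet the log2 fold change of −0.11, with a 95% interval of −0.25 to 0.035, did not pass (edgeR adjusted p = 0.20). It passed in the span-adjusted and size-adjusted fits (−0.30 and −0.20) and had the other sign, 0.016, in the GC-adjusted one. PRDX4, the secretory pathway form, which helps to oxidise proteins in the endoplasmic reticulum (chromosome X at 23664262 to 23686397, plus strand), was at 114, 120 and 99.8 CPM with sauchinone and at 97.3, 98.6 and 91.1 CPM without it. UVB + sauchinone replicate 3 lay just above UVB replicate 2, and the log2 fold change was 0.22 ± 0.083 (edgeR adjusted p = 0.034). This call was lost in 8 of 17 alternatives: when UVB replicate 1 or 3 or UVB + sauchinone replicate 1 or 2 was left out (0.23, 0.18, 0.20 and 0.16; edgeR adjusted p = 0.086, 0.056, 0.12 and 0.18), without a filter on low counts (0.21), and in the span-adjusted, size-adjusted and GC-adjusted fits (0.10, 0.065 and 0.13). Over all 17 its adjusted p ran from 0.011 to 0.53.

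PRDX5, which is found in mitochondria, peroxisomes and the cytosol (chromosome 11 at 64318121 to 64321811, plus strand), was at 93.8, 96.3 and 102 CPM in UVB + sauchinone replicates 1, 2 and 3 and at 84.5, 96.9 and 73.5 CPM in UVB replicates 1, 2 and 3. UVB replicate 2 lay inside the range of the treated libraries, and the log2 fold change of 0.20, with a 95% interval of 0.0087 to 0.39 before correction for multiple tests, did not pass (edgeR adjusted p = 0.077). It passed without UVB replicate 2 (0.30, edgeR adjusted p = 0.0046) and with scaling by total count alone (0.24), and its sign turned in the span-adjusted and GC-adjusted fits (−0.022 and −0.047). PRDX6, the form with a single active cysteine, which also has phospholipase activity and takes its electrons from glutathione (chromosome 1 at 173477330 to 173488815, plus strand), was at 329, 326 and 348 CPM with sauchinone and at 395, 447 and 367 CPM without it. The groups did not overlap, and PRDX6 was 1.20-fold lower, at −0.27 ± 0.075 in log2 units (edgeR adjusted p = 0.0049). The span-adjusted, size-adjusted and GC-adjusted values were −0.45, −0.42 and −0.18, and each passed.

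**Figure D3:**
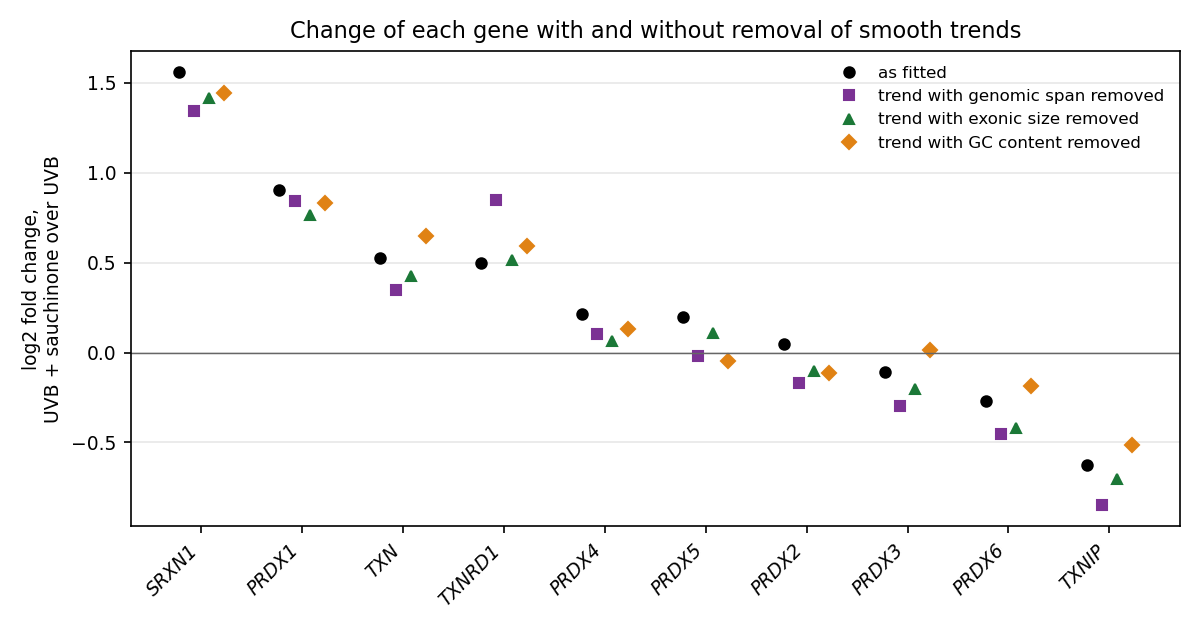
Log2 fold change (UVB + sauchinone over UVB) of each gene as fitted and in the span-adjusted, size-adjusted and GC-adjusted fits. SRXN1, PRDX1, TXN and TXNRD1 stay above 0 and TXNIP and PRDX6 below 0 in all 4, PRDX4 stays above 0 and passes as fitted but in none of the 3 adjusted fits, and PRDX2, PRDX3 and PRDX5 lie on both sides of 0.

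The make-up of peroxiredoxin mRNA differed, with a larger share of PRDX1 in treated cells. PRDX1 made up 65.8%, 67.5% and 63.9% of the summed TPM of the 6 genes in UVB + sauchinone replicates 1, 2 and 3 and 50.4%, 49.7% and 50.0% in UVB replicates 1, 2 and 3. PRDX6 made up 12.1% ± 0.99 with sauchinone and 20.7% ± 0.47 without it (SD, n = 3), and the share of each of the other 4 was lower with sauchinone too. A lower share is not a lower level. Mean TPM was higher with sauchinone for PRDX4 and PRDX5 and lower for PRDX2, PRDX3 and PRDX6. For PRDX2 the direction depended on the scale, with means of 127.9 and 129.1 TPM but 62.6 and 60.5 CPM with and without sauchinone. The summed level was 5009, 5187 and 4773 TPM in UVB + sauchinone libraries and 3681, 3863 and 3450 TPM in UVB libraries. Without PRDX1 it was 1707 ± 20.3 TPM with sauchinone and 1831 ± 109 TPM without it, at 1684 to 1723 TPM and 1725 to 1943 TPM, so the nearest libraries of the groups were close together. Unlike the CPM and fold changes above, TPM carries no TMM scaling. Shares within a library are not altered by scaling, but the sums are. The small difference in the sum without PRDX1 may therefore depend on the scale and is not read as a fall. These sums and shares are given as descriptions and were not tested.

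**Figure D4:**
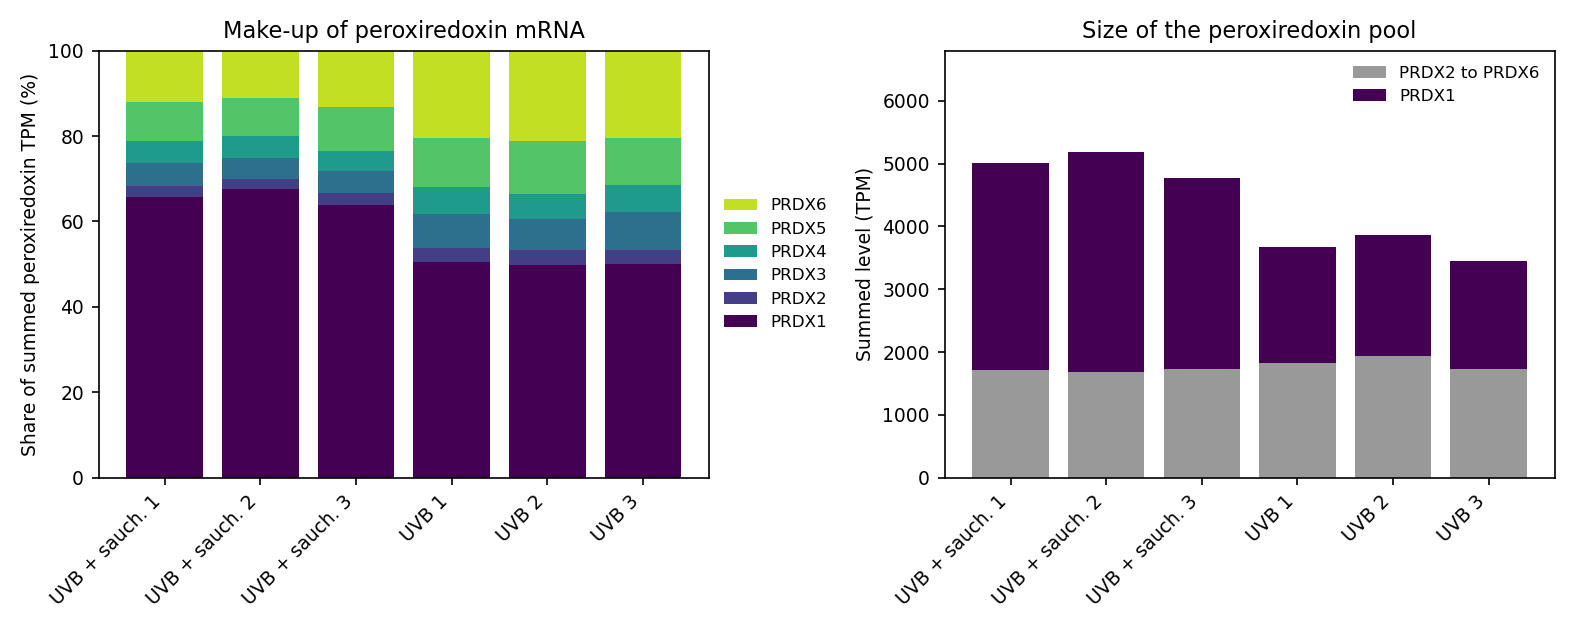
Share of each peroxiredoxin in the summed TPM of PRDX1 to PRDX6 (left, percent) and the summed TPM itself (right), one bar per library, UVB + sauchinone before UVB. PRDX1 holds 63.9% to 67.5% of the sum with sauchinone and 49.7% to 50.4% without it, and the sum without PRDX1 is 1684 to 1723 TPM with sauchinone and 1725 to 1943 TPM without it. TPM carries no TMM scaling, so small differences in the sums may depend on the scale.

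Genes around the system were taken from lists, and all values are log2 fold changes unless given otherwise. Of 14 relatives with a thioredoxin fold or their reductases, 3 rose, 3 fell and 8 did not pass, with a median of 0.11, which is near the 24.7% higher and 24.9% lower among all genes tested. TXNDC5 and TXNDC12, thiol oxidoreductases of the endoplasmic reticulum, rose by 0.51 ± 0.17 and 0.41 ± 0.098 (SE; edgeR adjusted p = 0.014 and 0.0014), the first losing its call without UVB replicate 3 (0.31) or UVB + sauchinone replicate 1 (0.45). TXNRD3, the reductase best known from testis, fell by 0.42 ± 0.11 (edgeR adjusted p = 0.0023). NXN, nucleoredoxin, was at −0.43 ± 0.084 (edgeR adjusted p = 0.00018) and, with a span of 180.5 kb, had a span-adjusted value of 0.085. TXN2 and TXNRD2, the mitochondrial thioredoxin and its reductase, did not pass, at 0.094 and −0.30 (edgeR adjusted p = 0.43 and 0.094). The mitochondrial pair was thus not called where the cytosolic pair rose, and the difference between the pairs was not tested.

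A list of 8 genes covered proteins that draw electrons from thioredoxin or are bound by it, and subunits of ribonucleotide reductase, which thioredoxin reduces. Of these mRNAs, 5 fell, none rose and 3 did not pass, with a median of −0.49, beside 24.9% of all genes lower. MAP3K5, the kinase ASK1 that reduced thioredoxin holds inactive, was at 7.60, 6.05 and 9.04 CPM in UVB + sauchinone replicates 1, 2 and 3 and at 32.0, 32.3 and 34.6 CPM in UVB replicates 1, 2 and 3. Its log2 fold change was −2.12 ± 0.13 (edgeR adjusted p = 8e-12), and −1.44 when span-adjusted, for a span of 236.1 kb. MSRB3, a methionine sulfoxide reductase, was at −1.13 ± 0.084 (edgeR adjusted p = 2.7e-10), and −0.50 when span-adjusted, for a span of 212.8 kb. The others that fell were RRM1 and RRM2, subunits of ribonucleotide reductase, and MSRB2, at −0.53, −0.52 and −0.46, named after their values were seen. MAP3K5, MSRB3, MSRA and RRM2 lie in the fifth of genes with the longest spans, where 58.5% of genes were lower and 7.99% higher. MSRA, at 0.32, was among those that did not pass. Sestrins, stress proteins that help to restore peroxiredoxin function, had 2 of 3 mRNAs called higher, in a list too short to set against the 24.7% of all genes. SESN2 rose by 1.52 ± 0.12 and SESN1 by 0.52 ± 0.089 (edgeR adjusted p = 3.1e-10 and 4.5e-05), with SESN3 at −0.17.

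TXNIP fell, and no other alpha-arrestin tested was called lower. Of 8 genes on the list of alpha-arrestins and TXNIP transcription factors, 4 rose, none fell, 2 did not pass and 2 (ARRDC5 and MLXIPL, which encodes ChREBP) had too few counts, beside 24.7% higher and 24.9% lower among all genes tested. ARRDC2 and ARRDC1 rose by 0.83 ± 0.13 and 0.74 ± 0.16 (SE; edgeR adjusted p = 2.4e-05 and 0.00067). MLXIP, which encodes MondoA, rose by 0.30 ± 0.10 (edgeR adjusted p = 0.015), with overlap of the groups. MLX, at −0.050, did not pass (edgeR adjusted p = 0.72). ARRDC4, the closest relative of TXNIP in its response to glucose, was at 179 ± 19.9 CPM with sauchinone and 193 ± 6.85 CPM without it, at −0.11 on the log2 scale, which did not pass (edgeR adjusted p = 0.26).

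The factors that insert selenocysteine, which TXNRD1 needs, had 3 of 8 mRNAs higher, 2 lower and 3 that were not called (median 0.26), near the 24.7% higher and 24.9% lower among all genes tested. SEPHS2, which makes the selenium donor, was at 111 ± 5.42 CPM in UVB + sauchinone and 64.6 ± 3.58 CPM in UVB, a rise of 0.77 ± 0.081 (edgeR adjusted p = 5.3e-08). SECISBP2L, a relative of the RNA-binding factor SECISBP2, rose by 0.37 ± 0.089. EEFSEC, the elongation factor of selenocysteine, was at −1.02 ± 0.18 (edgeR adjusted p = 7.4e-05) and, with a span of 255.2 kb, did not pass when span-adjusted (−0.28, edgeR adjusted p = 0.22). SEPSECS, which forms the charged tRNA, was at −0.42 ± 0.13, a call lost without UVB replicate 3 (−0.27) and in the size-adjusted and GC-adjusted fits (−0.26 and −0.17).

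All 9 genes of a reference list of NRF2 targets outside the system rose, beside 24.7% of all genes tested, with a median of 1.09. OSGIN1 rose most, by 2.06 ± 0.16 (SE; edgeR adjusted p = 4.9e-10), and NQO1, a quinone reductase, was at 871 ± 30.1 CPM in UVB + sauchinone and 439 ± 32.2 CPM in UVB, a rise of 0.99 ± 0.070. HMOX1, the haem-degrading enzyme, rose by 1.55 ± 0.085. SRXN1 and PRDX1, at 1.56 and 0.91, lay inside the range of these 9 genes (0.62 to 2.06), and TXN and TXNRD1, at 0.52 and 0.50, below it. This list overlaps a set whose rise in these libraries was known when it was drawn up, so its count is no independent evidence of direction.

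**Figure D5:**
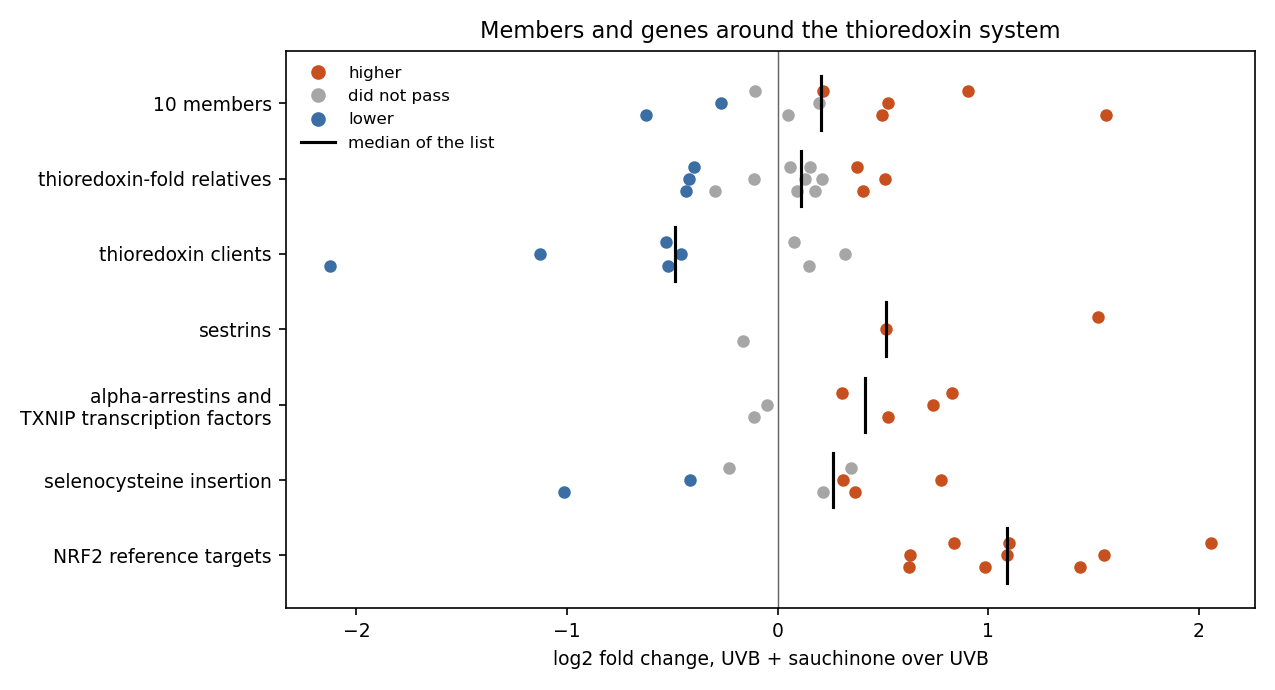
Log2 fold change (UVB + sauchinone over UVB) of the 10 genes and of each list around them, one point per gene tested, coloured by call, with the list's median as a bar. All 9 NRF2 reference targets lie right of 0, and of the 8 genes on the list of thioredoxin clients 5 were called lower and none higher.

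The genes whose log2 CPM followed TXNRD1 most closely over the 6 libraries were FAM98A, UBE2A and PDXDC1 (Pearson r = 0.998, 0.998 and 0.997), out of 9052 genes averaging 10 CPM or more. For TXNIP they were TMEM126A, CAMK2N1 and RPS6KA2 (r = 0.998, 0.995 and 0.995). The libraries fall into 2 groups that differ in each of these genes, so high values are common: 10.9% of the 9052 genes had r above 0.95 with TXNRD1 and 3.5% with TXNIP.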

How the data were processed

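RNA was sequenced as strand-specific paired-end libraries, after poly(A) selection or removal of ribosomal RNA, per the labels' protocols. Not given in the sources used here: which of these was used, the aligner, the counter, the annotation and the strand setting of the counting. The build was GRCh38, per the submitters' processing notes. The authors deposited raw counts, FPKM and exonic sizes per gene. The deposited FPKM equalled the scaled count in 100% of values within 0.006 and was not tested. The members and lists were chosen with earlier results of these data known.

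The counts entered edgeR 4.0.16 (R 4.3.3) with filterByExpr, TMM scaling and the two-sided quasi-likelihood test without covariates on all 6 libraries, with Benjamini-Hochberg adjustment over 15704 genes and a threshold of 0.05. The fit was tested on simulated data in which few genes changed and all had the same dispersion. That test does not cover data in which as many genes change as here. Standard errors, the log2 fold change over the root of F, had a median of 0.123 at this depth. CPM used TMM-adjusted library sizes, and TPM used counts and exonic sizes. Ratios were compared with an exact permutation test. Named genes were the 10 members, the 2 largest called rises and falls of each list, HMOX1, NQO1, the 3 genes most correlated with TXNRD1 and TXNIP, and overlapping genes or pseudogenes reaching 10 counts. TXN2, TXNRD2, SESN3, ARRDC4, RRM1, RRM2, MSRB2, MSRA, MLXIP and MLX were named outside this rule after their values were seen. They were not followed through the alternatives. Pseudogene rows of the members held at most 0.627% of a member's count. Alternatives were DESeq2 1.42.0, limma-voom (limma 3.58.1), other scalings and filters, a replicate block, each library left out in turn, and offsets removing smooth trends with span, exonic size or transcript GC content (GENCODE release 29, a value for 98.2% of tested genes).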

Additional observations from a re-analysis of the deposited data

How the results depend on the processing

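In the 17 alternative fits, TXN, TXNRD1, SRXN1, PRDX1, TXNIP and PRDX6 kept their direction and their side of the threshold. Between 6 and 8 of the 10 genes passed, 4 to 6 higher and 2 to 3 lower, and 6718 to 8174 of all genes. Signs turned for PRDX2 (−0.033 to 0.15 when each library was left out in turn; −0.17, −0.10 and −0.11 with the trend in span, exonic size or GC content removed), PRDX3 (0.016, GC), PRDX5 (−0.022, span; −0.047, GC) and NXN (0.085, span); the cause was not tested. The log2 TXNRD1 to TXN ratio ran from −0.071 to 0.0015 when each library was left out in turn. The other ratios kept their direction, at −1.21 to −1.11 for TXNIP to TXN and 0.735 to 1.02 for SRXN1 to PRDX1 to PRDX4, and as 3 libraries against 3 cannot reach 0.05, their p-values say nothing of stability.

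The replicate block gave 7280 calls over all genes, against 7786 without it, and the same number of the 10 genes, 7. Libraries with the same number did not deviate together (r = 0.0072, −0.078 and −0.031). This gave no sign that the numbers pair the samples, but 3 libraries per group cannot exclude it. Depth limits SRXN1 most, at 43 to 69 counts in UVB libraries; intervals on other members are narrower.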

Other observations

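Genes that overlap the members, and pseudogenes of them, are given by their counts, without a test. EID3, a gene on the same strand overlapping TXNRD1, had 148, 155 and 128 counts in UVB + sauchinone replicates 1, 2 and 3 and 46, 63 and 77 in UVB replicates 1, 2 and 3. RPL18AP3, a ribosomal protein pseudogene overlapping TXNRD1 on the same strand, had 739, 688 and 790 counts with sauchinone and 515, 535 and 442 without it, while an unnamed gene on the other strand there, ENSG00000257732, had 47, 48 and 39 counts against 67, 58 and 59. MMACHC, which overlaps PRDX1 on the other strand, had 245, 301 and 259 counts with sauchinone and 179, 215 and 170 without it, at most 1.31% of the PRDX1 count. HOOK2, which overlaps PRDX2 on the same strand, had 183, 198 and 179 counts with sauchinone and 150, 194 and 137 without it, up to 13.9% of the PRDX2 count. PRDX6-AS1, the antisense partner of PRDX6, had 30, 37 and 35 counts with sauchinone and 36, 57 and 47 without it. TXNP6, a TXN pseudogene, had 21, 13 and 19 counts with sauchinone and 9, 19 and 28 without it, and the PRDX3 pseudogenes PRDX3P1 and PRDX3P4 reached 10 and 11 counts at most. Since counting by strand is not stated, reads of overlapping genes on opposite strands cannot be told apart. The counter is not stated either, so how reads shared by genes on the same strand were assigned is not known.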
